A study of Mus musculus with 8 samples.

Results

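The chemokines described here are 8 secreted or membrane-bound attractants of leukocytes, measured in RNA of cultured mouse myotubes. They are the CC chemokines Ccl2, Ccl7 and Ccl5, the CXC chemokines Cxcl1, Cxcl5, Cxcl10 and Cxcl12, and the CX3C chemokine Cx3cl1. They were chosen by name, as were the gene lists used below, with earlier results of these data known. The shares of all genes given beside their counts are therefore a description and no test. Every probe set that the platform annotation assigns to 1 of these 8 genes was taken. That gave 15 probe sets, 11 on array type A and 4 on array type B, out of 18193 genes with a named probe set. A probe set is a group of short oligonucleotides that reports 1 transcript.

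The study asked which genes Egr3, an activity-induced zinc-finger transcription factor, regulates in primary myotubes, the multinucleated muscle cells formed by fusion of precursors. There were 4 total RNAs, each hybridised to 1 array of each type, giving 8 arrays. By the labels, 1 of these RNAs is the wildtype and 1 comes from cells with truncated Egr-3, both grown without another stated agent. RNA275 carries only the treatment type acclimatization and RNA276 carries no condition, so these 2 RNAs belong to no group and their values are given without a comparison between groups. The mouse strain and age, the construct behind the truncated protein and the way it reached the cells are not stated in the labels, nor is what wildtype refers to. Since a label covers a single RNA, nothing was replicated, and each difference below describes these RNAs and carries no p-value.

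Chemokines bind receptors on leukocytes and guide their migration along gradients held on the matrix. Injured or inflamed muscle draws in monocytes, neutrophils and T cells this way, and muscle cells can themselves make several of these ligands. Some chemokine genes respond mainly to NF-kB, others to interferons through STAT and IRF factors, and others are made constitutively by stromal cells.

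The authors deposited linear intensities on a scale that the 8 arrays already shared. Signals were read against a floor, 67.6 for type A and 112.6 for type B, which is the 50th or 60th percentile of both labelled arrays of that type pooled. A signal under the floor was set to it before log2 was taken, and a fold against a floored signal is given as "at least". Probe sets differ in how brightly they report, so levels are compared between RNAs within a probe set and never between genes. The array types share 100 probe sets, and from these the technical SD of a single log2 difference was 0.179 for wildtype minus truncated Egr3, and between 0.150 and 0.204 over all pairs of the 4 RNAs. This SD leaves out the mean of type A minus type B. That mean was 0.139 for wildtype minus truncated Egr3, 0.217 for wildtype minus RNA275 and 0.267 for wildtype minus RNA276. These probe sets are brighter than most, with a median signal of 343 on type A, and the spread of dim probe sets was not measured.

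All 10 skeletal muscle fibre markers, such as the actin gene Acta1 and the creatine kinase gene Ckm, were above the floor in each RNA. Of these, Ttn alone spanned at least 2-fold, at 1850 in wildtype, 1627 in truncated Egr3, 704 in RNA275 and 354 in RNA276. Of 5 myoblast and satellite cell markers, Cdh15, Myod1 and Vcam1 were above the floor in every RNA and highest in RNA276. Pax7 and Myf5 were under it throughout. Of 13 macrophage markers, 3 were above the floor in wildtype, 2 in truncated Egr3, 3 in RNA275 and 2 in RNA276, and the summed signal of the list was 597, 512, 544 and 540 in that order. Csf1r read 99.7, 94.4, 89.9 and 116 and Laptm5 93.1, 104, 74.4 and 82.0 in wildtype, truncated Egr3, RNA275 and RNA276. Cd74 was above the floor in wildtype, at 92.6, and in RNA275, at 94.2. The pan-leukocyte marker Ptprc read between 8.64 and 11.6 and the macrophage markers Adgre1 and Cd68 read at most 60.1 and 40.5, all under the floor. None of 5 T-cell and none of 5 neutrophil markers was above the floor in any RNA, and 1 of 6 endothelial markers, Kdr, was above it, in wildtype alone, at 70.8. Of 8 fibroblast markers 5 were above the floor in every RNA, with summed signals of 9596 in wildtype, 9226 in truncated Egr3, 7982 in RNA275 and 8871 in RNA276. Of these, Dcn was 2.02-fold lower in wildtype (157 against 317 in truncated Egr3), and Postn read 1539 in wildtype, 1734 in truncated Egr3, 977 in RNA275 and 461 in RNA276. The part of fibroblasts in the chemokine values was not tested. In such bulk RNA, fewer cells making a transcript and less of it per cell cannot be told apart.

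Chemokine signals in the wildtype RNA exceeded those in the truncated-Egr3 RNA for 4 genes: Cxcl10, Ccl5, Ccl2 and Cx3cl1. Of the 8 genes, 5 were above the floor in at least 1 of these RNAs, 4 of those were at least 2-fold higher in wildtype, and none was at least 2-fold lower. Among all 10307 genes above the floor in either RNA, 1.13% were at least 2-fold higher in wildtype and 0.534% at least 2-fold lower. That is 116 genes higher and 55 lower, a split that became 93 and 87 when the arrays were given equal medians. The median log2 difference of the 5 chemokines was 2.06, a lower bound, and that of all genes measured was -0.00065. The 5th, Cxcl12, had a log2 difference of -0.27. Of these RNAs, Cxcl10, Ccl2 and Cx3cl1 were above the floor in wildtype alone, and Cxcl12 in truncated Egr3 alone. The direction of these genes therefore followed from the filter, which was the same for all genes, and only Ccl5 was measured on both sides. Ccl7, Cxcl1 and Cxcl5 were under the floor in both RNAs by the probe sets that represent them, so they give no fold.

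**Figure D1:**
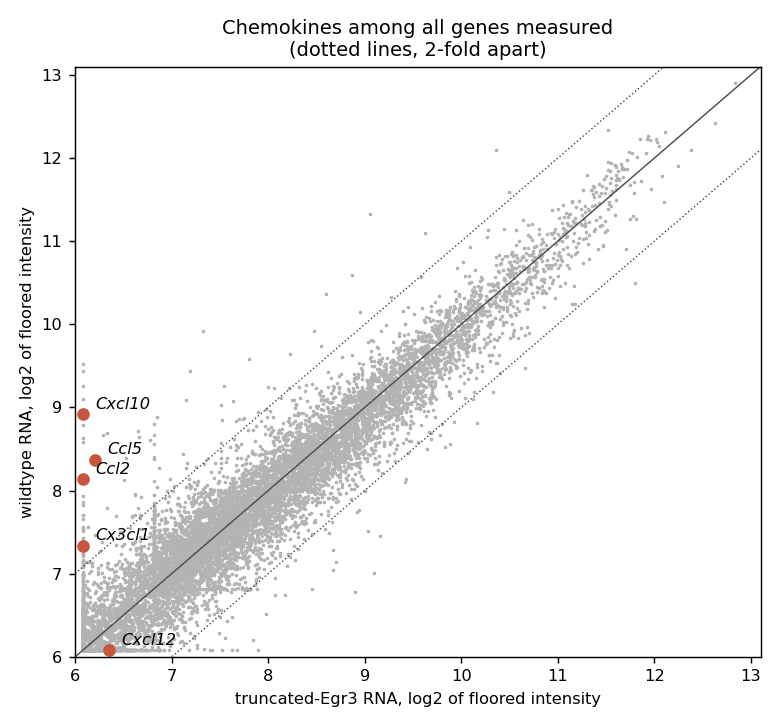
Each grey point is a gene above the floor in at least 1 of the wildtype and truncated-Egr3 RNAs, placed by its log2 floored intensity in truncated Egr3 (x axis) and wildtype (y axis). The solid line marks equal signal and the dotted lines 2-fold; Cxcl10, Ccl5, Ccl2 and Cx3cl1 (red) lie above the upper dotted line at log2 differences of 2.84, 2.17, 2.06 and 1.26, and Cxcl12 lies at -0.27.

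Cxcl10, which recruits activated T cells and natural killer cells through the receptor Cxcr3, had the largest difference. Its only probe set, 1418930_at, read 483 in wildtype, 16.1 in truncated Egr3, 740 in RNA275 and 2773 in RNA276. The truncated-Egr3 RNA was thus the 1 RNA without a signal above the floor, where the value lay at the 22.6 percentile of that array, and RNA276 reached the 99.3 percentile of its array. Wildtype was at least 7.14-fold above truncated Egr3.

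The RefSeq promoter table held 4 of the 8 genes: Cxcl1, Cxcl10, Cxcl12 and Cx3cl1. The 250 bases before the start site are shown for 3 of them, because Cxcl10 and Cx3cl1 both differed between wildtype and truncated Egr3 yet took different orders over the 4 RNAs, and Cxcl1 carries a match that Cx3cl1 lacks. Sequences are from RefSeq, build GRCm38.p6, 5′ to 3′ on the strand of the gene, and capitals mark matches on either strand to the interferon-stimulated response element (ISRE) core or to the NF-kB decamer.
Cxcl10, chr5:92348890-92349139, minus strand: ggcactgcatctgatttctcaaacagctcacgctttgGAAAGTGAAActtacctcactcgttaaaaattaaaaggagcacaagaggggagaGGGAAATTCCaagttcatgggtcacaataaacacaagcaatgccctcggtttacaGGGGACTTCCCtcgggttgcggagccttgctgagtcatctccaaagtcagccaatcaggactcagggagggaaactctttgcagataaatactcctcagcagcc
Cx3cl1, chr8:94771930-94772179, plus strand: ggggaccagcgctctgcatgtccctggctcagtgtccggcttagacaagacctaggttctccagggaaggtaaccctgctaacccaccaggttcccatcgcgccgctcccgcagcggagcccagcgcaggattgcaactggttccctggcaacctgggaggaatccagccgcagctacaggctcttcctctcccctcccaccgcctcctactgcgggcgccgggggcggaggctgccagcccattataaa
Cxcl1, chr5:90890995-90891244, plus strand: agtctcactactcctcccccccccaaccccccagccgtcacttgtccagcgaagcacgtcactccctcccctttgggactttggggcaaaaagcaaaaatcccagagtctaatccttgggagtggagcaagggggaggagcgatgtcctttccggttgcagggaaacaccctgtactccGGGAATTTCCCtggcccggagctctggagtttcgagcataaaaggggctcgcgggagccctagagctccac

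Motifs were searched on both strands as GAAA, any 2 bases and GAAA for the ISRE core, TTCNNNGAA for STAT (GAS) sites, TGANTCA for AP-1, GCGNGGGCG for the Egr family, TATAAA for the TATA box, and the degenerate decamer of NF-kB by its name. The Cxcl10 window held the ISRE core at -213 to -204 from the start site, NF-kB matches at -159 to -150, at -104 to -95 and at -103 to -94, the last 2 overlapping, and an AP-1 match at -74 to -68. The Cxcl1 window held overlapping NF-kB matches at -71 to -62 and -70 to -61. The Cx3cl1 window held 1 match, to the TATA box, at -6 to -1, and the Cxcl12 window held none of the 6 motifs. Of 32851 promoter windows of this length, 2.98% held the ISRE core, 7.25% the NF-kB decamer, 7.02% the GAS site, 6.75% the AP-1 site, 4.7% the Egr site and 12.4% the TATA box. No Egr site was found in these 4 windows. A match is a run of letters in a short window and is not evidence of binding.

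**Figure D2:**
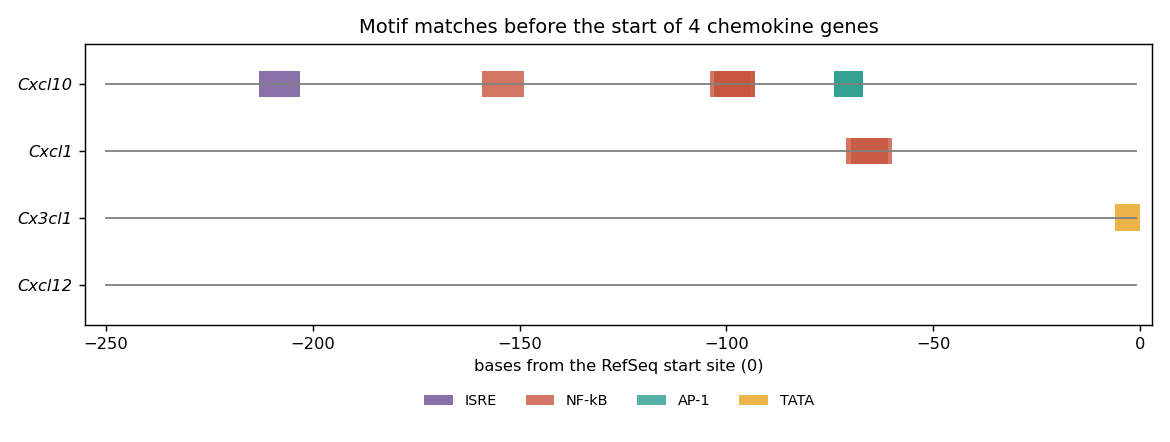
Motif matches in the 250 bases before the RefSeq start site of Cxcl10, Cxcl1, Cx3cl1 and Cxcl12, with the distance from the start site in bases on the x axis and 1 gene per line; coloured blocks are matches on either strand. Cxcl10 carries the ISRE, NF-kB and AP-1 matches, Cxcl1 an NF-kB match, Cx3cl1 a TATA match at -6 to -1, and Cxcl12 none.

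The CC chemokine Ccl2, the main attractant of Ccr2-bearing monocytes, had the same order of RNAs as Cxcl10. Probe set 1420380_at read 282 in wildtype, 30.8 in truncated Egr3, 751 in RNA275 and 2409 in RNA276, so that truncated Egr3 was again the 1 RNA under the floor. The wildtype signal was at least 4.17-fold above that of truncated Egr3. Ccl7, also a monocyte attractant through Ccr2, is the gene next to Ccl2 among protein-coding genes in the RefSeq table. Its probe set 1421228_at read 53.7 in wildtype, 23.3 in truncated Egr3, 110 in RNA275 and 712 in RNA276. Only the 2 RNAs without a group were above the floor, with RNA276 above RNA275 as for Ccl2. The coding sequences of these CC chemokines are related, and how far each probe set also reports its relatives was not analysed here.

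Ccl5, which attracts T cells and monocytes, was above the floor in all 4 RNAs, so its fold is measured on both sides. Probe set 1418126_at read 330 in wildtype, 73.7 in truncated Egr3, 226 in RNA275 and 2373 in RNA276. Wildtype was 4.49-fold above truncated Egr3, a log2 difference of 2.17. The truncated-Egr3 value lay just above the floor of 67.6. Wildtype and RNA275 were in the other order than for Ccl2, Ccl7 and Cxcl10, with a gap of 0.55 in log2 against a technical SD of 0.181 for that pair. The array types also differed by a mean of 0.217 for it.

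Cx3cl1, made as a membrane-bound adhesion molecule that proteases release as a soluble attractant, had another order of the RNAs. Its brightest probe set, 1415803_at, read 161 in wildtype, 55.7 in truncated Egr3, 263 in RNA275 and 73.6 in RNA276. RNA275 was highest, RNA276 was just above the floor and truncated Egr3 under it, whereas RNA276 was highest for Cxcl10, Ccl2, Ccl5 and Ccl7. The wildtype signal was at least 2.39-fold above that of truncated Egr3. The next probe set, 1415804_at, also had RNA275 above wildtype and both above the floor, at 102 in wildtype, 11.2 in truncated Egr3, 186 in RNA275 and 41.4 in RNA276, with a fold of at least 1.51. The other 2 Cx3cl1 probe sets were under the floor in every RNA, at no more than 16.6 for the one on type A and 25.1 for the other. With the higher floor, and with the median over the probe sets of type A, Cx3cl1 fell short of 2-fold, at log2 differences of 0.67 and 0.59.

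Cxcl1 and Cxcl5, ligands of Cxcr2 that draw in neutrophils, gave no difference that could be read as one gene's change. The type A probe set of Cxcl1, 1419209_at, was under the floor throughout, at 45.1 in wildtype, 28.0 in truncated Egr3, 43.1 in RNA275 and 58.0 in RNA276. On type B, 1441855_x_at read 488 in wildtype, 765 in truncated Egr3, 611 in RNA275 and 602 in RNA276, while 1457644_s_at read 385, 346, 341 and 259. These 2 probe sets disagreed in sign between wildtype and truncated Egr3, with log2 differences of -0.65 and 0.16, and neither spanned 2-fold over the 4 RNAs. The x and s in their names mark probes that can match more than 1 transcript. Cxcl5 was at most 7.51 in any RNA, far under the floor.

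Cxcl12, the constitutive ligand of Cxcr4 that retains and guides stem and progenitor cells, was dim in all RNAs. By 1448823_at it read 54.5 in wildtype, 81.7 in truncated Egr3, 53.9 in RNA275 and 78.3 in RNA276, and by 1417574_at 58.1, 76.2, 38.0 and 59.6. The type B probe set 1439084_at read 125 in wildtype, 62.6 in truncated Egr3, 103 in RNA275 and 167 in RNA276. Truncated Egr3 was thus highest of the 4 RNAs by both type A probe sets and was under the floor, with RNA275, by the type B probe set, with floored log2 differences of -0.27, -0.17 and 0.15. No Cxcl12 probe set reached 2-fold.

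**Figure D3:**
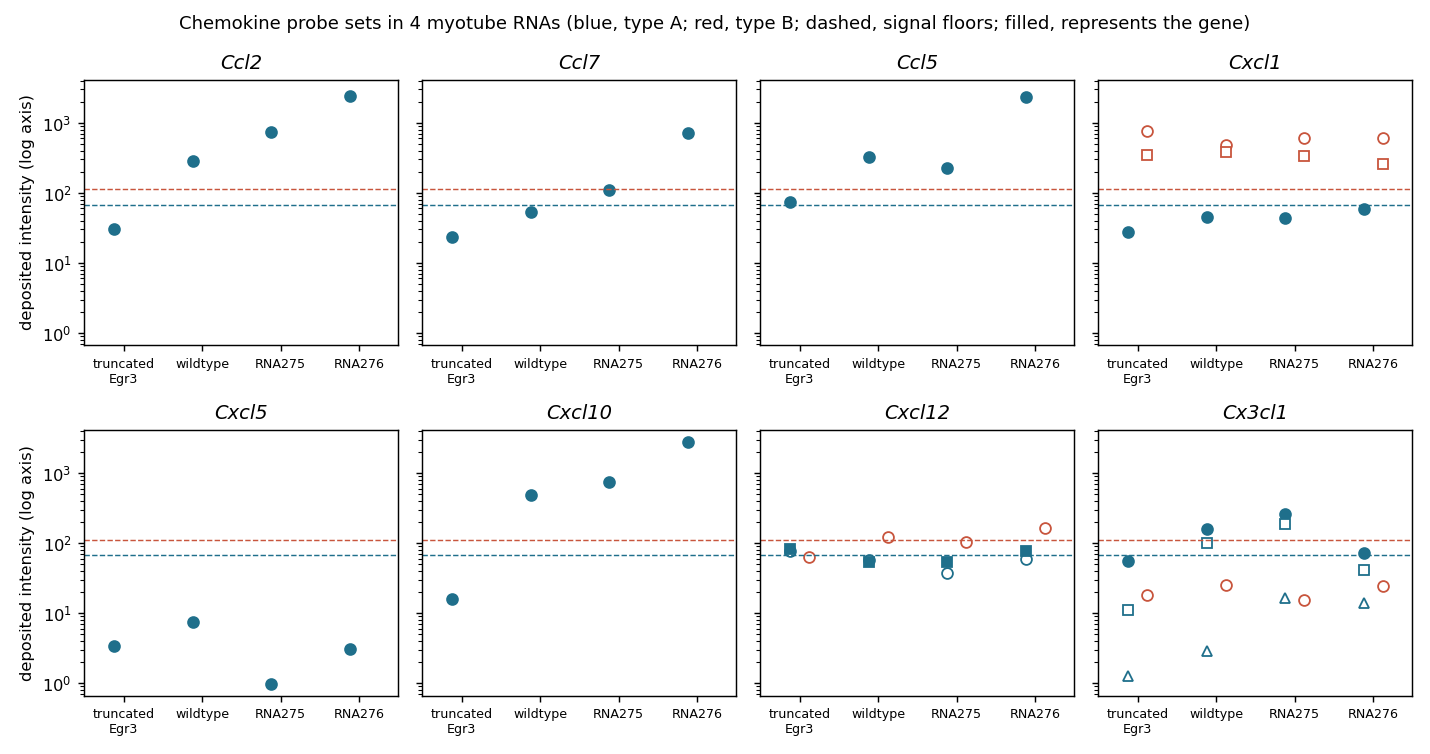
Deposited intensity on a log axis for all 15 chemokine probe sets in the truncated-Egr3, wildtype, RNA275 and RNA276 RNAs, 1 panel per gene; blue symbols are type A, red symbols type B, filled symbols the probe set that represents the gene, and dashed lines the floors of 67.6 and 112.6. Cxcl10, Ccl2 and Ccl5 run from 73.7 or less in truncated Egr3 to 2373 or more in RNA276, Cx3cl1 peaks in RNA275, the probe sets of Cxcl1 and of Cxcl12 differ in order, and the 1 probe set of Cxcl5 is under the floor throughout.

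Over the 4 RNAs, the chemokines fell into a set of 4 with a wide range and a remainder. The range was at least 41.1-fold for Cxcl10, at least 35.7-fold for Ccl2, 32.2-fold for Ccl5 and at least 10.5-fold for Ccl7. It was at least 3.89-fold for Cx3cl1 and at least 1.21-fold for Cxcl12. Of the 6 chemokines above the floor in any RNA, 5 spanned at least 2-fold and 4 at least 8-fold, against 14.8% and 0.394% of all 11154 such genes. RNA276 was highest for 4 of the 6, RNA275 for 1 and wildtype for 0, against 32.4%, 25.9% and 17.7% of all such genes. Truncated Egr3 was the lowest for 4 of the 6, Cxcl10, Ccl2, Ccl5 and Cx3cl1, against 21% of all such genes. For Cxcl10, Ccl2 and Cx3cl1 it was the 1 RNA under the floor. These genes thus passed the filter only through the other RNAs, and this count is not separate from the wildtype difference above. Truncated Egr3 was highest for Cxcl12, against 24% of all such genes. RNA276 took that place with quantile normalization, equal medians or loess, and the gap between them was 0.06 in log2 in the deposited scale.

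The likeness of 2 genes was measured as the root mean square distance of their floored log2 signals, each centred on its mean over the 4 RNAs. With 4 RNAs this is a description of shape and carries no test. Among the chemokines, Ccl2 and Cxcl10 were closest, at 0.32, and Ccl5 and Cx3cl1 farthest apart, at 2.09. Of the 11148 other genes above the floor, the 5 nearest to Cxcl10 were Usp18 (0.15), Ifit3 (0.22), Phf11d (0.26), Ifit1 (0.30) and Rtp4 (0.36). Usp18 restrains interferon receptor signalling, and Ifit1 and Ifit3 are antiviral proteins that bind RNA or its partners. Usp18, Phf11d, Rtp4 and Ifit3 were also among the 5 nearest to Ccl2, at 0.39, 0.41, 0.47 and 0.54, with Bst2, which tethers budding virions, at 0.43.

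Ccl5 was nearest to other genes than these. The closest was Gbp2 (0.28), a guanylate-binding protein, followed by Oasl1 (0.35) and the interferon-inducible GTPases Irgm2 (0.42), Ifi47 (0.48) and Igtp (0.49). Oasl1 read 189 in wildtype, 70.4 in truncated Egr3, 124 in RNA275 and 1249 in RNA276, with wildtype above RNA275 as for Ccl5. Ccl7 was nearest to Cmpk2 (0.15), a mitochondrial nucleotide kinase, then Lipg (0.30), Mx1 (0.34), Apod (0.41) and Nmi (0.44). Cmpk2 read 73.8 in wildtype, 8.73 in truncated Egr3, 108 in RNA275 and 915 in RNA276.

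The nearest genes to Cx3cl1 were none of these. They were Mfsd6 (0.074), the cardiac myosin-binding protein gene Mybpc3 (0.085), Tgfb1 (0.10), Prex1 (0.10) and Septin4 (0.11). Tgfb1, a secreted growth factor that limits inflammation, read 603 in wildtype, 266 in truncated Egr3, 1182 in RNA275 and 286 in RNA276. The smaller distances of Cx3cl1 come with its smaller range and are not set against those of the other chemokines.

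The other chemokine ligands were mostly unread in these RNAs. Of 27 on the arrays, 5 were above the floor in wildtype or truncated Egr3. None of the 5 reached 2-fold after flooring, against 1.66% of all genes measured, and their median log2 difference was 0.10. Ccl1 and Ccl8 had the largest differences, of at least 0.70 and 0.27, and with the lower floor Ccl1 was at 1.32. Over the 4 RNAs, 8 of the 27 were above the floor in any RNA. Of these, 4 spanned at least 2-fold, against 14.8% of all genes above the floor in any RNA. Cxcl9, like Cxcl10 a ligand of Cxcr3, read 54.9 in wildtype, 4.20 in truncated Egr3, 87.0 in RNA275 and 318 in RNA276, so that RNA276 was above RNA275, as for Cxcl10, and both labelled RNAs were under the floor. Ccl8, a relative of Ccl2 and Ccl7, read 95.2 in wildtype, 78.8 in truncated Egr3, 67.1 in RNA275 and 155 in RNA276. Ccl1, a ligand of Ccr8, read 110, 28.4, 310 and 17.2 in wildtype, truncated Egr3, RNA275 and RNA276. Ccl20, the ligand of Ccr6, read 10.9, 6.03, 160 and 5.12 in the same order. Ccl1 and Ccl20 thus were highest in RNA275 and under the floor in RNA276, and Cxcl9 and Ccl8 were highest in RNA276. Ccl20 passed the floor in RNA275 alone and Cxcl9 in RNA275 and RNA276 alone, so where they were high followed in part from the filter. Both were named after their values were seen.

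**Figure D4:**
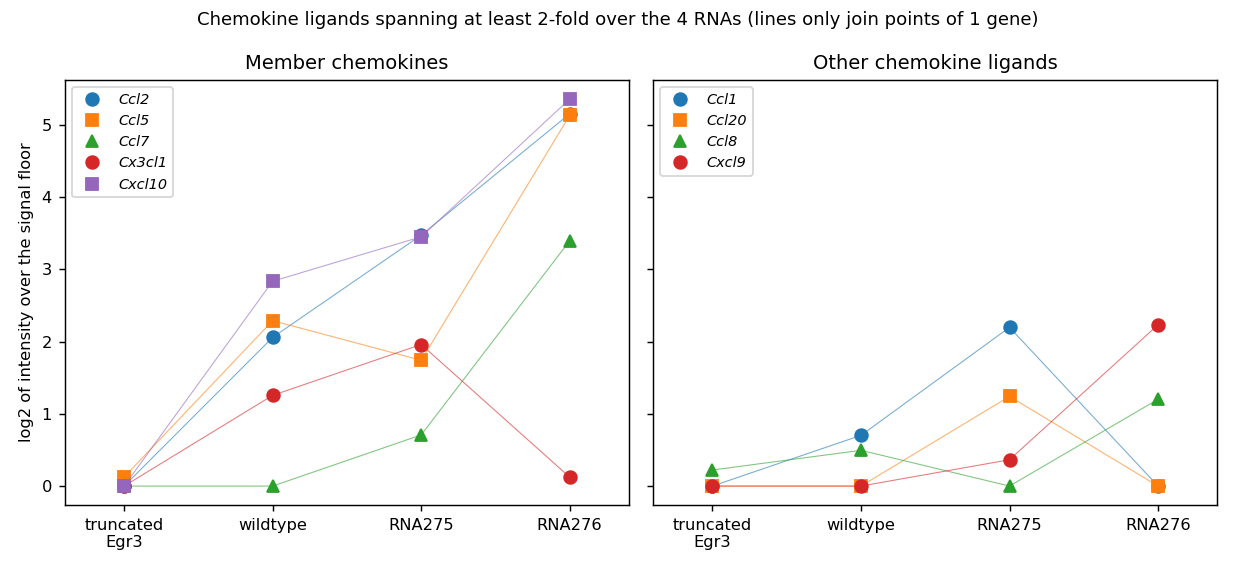
Log2 of intensity over the signal floor (0 is the floor) in the truncated-Egr3, wildtype, RNA275 and RNA276 RNAs, for the 5 chemokines (left) and the 4 other chemokine ligands (right) that spanned at least 2-fold; thin lines only join the points of 1 gene. Cxcl10, Ccl2, Ccl5, Ccl7, Cxcl9 and Ccl8 peak in RNA276, and Cx3cl1, Ccl1 and Ccl20 peak in RNA275.

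Chemokine receptors were near or under the floor. Of 21 on the arrays, 3 were above it in wildtype or truncated Egr3, with a median log2 difference of 0.25. None of the 3 was 2-fold apart, against 1.66% of all genes measured. Ackr1, an atypical receptor that binds chemokines without G-protein signalling, had a log2 difference of 0.87, at 131 in wildtype against 71.8, and Ccrl2 one of at least 0.25. Cxcr3, Cxcr2, Cxcr4, Ccr2 and Cx3cr1, receptors of some of the ligands above, were under the floor in every RNA, at no more than 60.9, 15.2, 24.0, 14.5 and 19.6. Over the 4 RNAs, 4 receptors were above the floor in any RNA. Besides Ackr1 and Ccrl2 they were Ccr6, the receptor of Ccl20, and Ackr3. Ccr6 was above it in wildtype alone, at 76.1, and Ackr3 in RNA275 alone, at 101.

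Of 15 interferon signalling genes measured, 4 were at least 2-fold higher in wildtype and none lower, against 1.13% of all genes, with a list median of 0.11. They were Irf7 (at least 8.15-fold) and Irf9 (at least 3.09-fold), transcription factors of the interferon response, Stat2 (at least 2.24-fold), their partner, and Usp18 (at least 7.33-fold). All 4 were above the floor in wildtype and under it in truncated Egr3, so their direction also followed from the filter. Stat2 was under 2-fold with the higher floor (0.57) and with the median over probe sets (0.73). Leaving out all probe sets with a letter such as a, s or x in their names left a count of 2 and a list median of -0.07. That step removes the Irf7 and Irf9 probe sets used here, whose names carry an a and not an x or s. Among the other 11, the type II receptor gene Ifngr1 had a log2 difference of -0.71 and Irf1 of 0.31. The interferon genes Ifnb1 and Ifng were under the floor in all 4 RNAs, at no more than 49.3 and 22.2. None of 10 NF-kB subunits, inhibitors and targets was 2-fold apart, against 1.66% of all genes measured, and their median was 0.12. At that share, a count of 0 in so short a list says little. By the brightest probe set of either array type 1 was 2-fold apart, the inhibitor gene Nfkbie. Nfkbiz and Ikbkg, an inducible NF-kB cofactor and a kinase scaffold, had the largest differences, at -0.71 and -0.57, the former a bound. Ikbkg was at 0.32 by its brightest probe set on either array type and at -0.13 by the median over probe sets. Nfkbia, the inhibitor that NF-kB itself induces, read 853 in wildtype and 713 in truncated Egr3.

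None of 11 inducing cytokines, receptors and adaptors was 2-fold apart, against 1.66% of all genes measured, with a median of 0.09. Il1rap, a subunit of the interleukin-1 receptor, had a log2 difference of at least 0.84 and Il6ra, the interleukin-6 receptor, one of 0.61. Tnf and Il1b were under the floor in all RNAs, at no more than 41.8 and 56.7. Among 14 genes of chemokine cleavage, matrix binding and mRNA decay, none was 2-fold apart, against 1.66% of all genes measured. Their median was 0.17. Mmp14, a membrane metalloproteinase that can cleave chemokines, had a log2 difference of -0.96, and Sdc1, a heparan sulphate proteoglycan, one of 0.61. With equal medians Mmp14 was at -1.03, so the count was 1. With probe sets in place of genes the count was also 1, and by the median over probe sets the list median was -0.00065. Adam10 and Adam17, which release Cx3cl1 from the membrane, had log2 differences of 0.27 and -0.27.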

How the data were processed

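The deposited values are intensities, 1 per probe set and array, and the deposited trimmed means (2% from each end) lay between 150.02 and 150.05 on all 8 arrays. How the intensities were made and scaled is not given in the sources used here. Samples were grouped by the labels, and RNA275 and RNA276 stayed unassigned. The members and gene lists were chosen with earlier results of these data known.

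Probe sets with 1 symbol in the platform annotation (20380 on type A, 14661 on type B) were named; 20351 and 14486 matched the GRCm38.p6 RefSeq table by gene number. To stand for a gene, the probe set with the highest mean signal over its 4 arrays was taken, from type A if it held one. Floors, the 2-fold threshold and bounds are described above. The ratio of 3' to 5' control signals was 1.05 to 1.19 for Actb and 0.72 to 0.832 for Gapdh. Genes named from each list are up to 4 of the largest differences at 2-fold, or the 2 largest where none was, and for chemokines spanning 1 in log2 the 5 nearest profiles. Others were named after their values were seen. The counting was tested on simulated data, with folds planted only in genes well above the floor in truncated Egr3. The chemokines called 2-fold apart were under or just above the floor there, so that test does not cover them. Alternatives were 3 scalings, 3 floors, 2 thresholds and 2 ways of treating several probe sets. Another left out probe sets with a letter such as a, s or x in their names. The last, chosen after seeing the data, took the brightest probe set of either type. The work used Python 3.11.15 with pandas 2.3.3, numpy 2.4.6, statsmodels 0.14.6, scipy 1.17.1 and, for plots, matplotlib 3.10.9.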

Additional observations from a re-analysis of the deposited data

Results flagged for a closer look

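The RNAs without a group gave chemokine signals at least 2-fold above both labelled RNAs, or above the floor where both of those were under it. In RNA276 the ratio was 8.55 for Ccl2, 7.18 for Ccl5, 5.75 for Cxcl10 and 10.5 for Ccl7, the last against the floor and so a lower bound. In RNA275 it was 2.67 for Ccl2. The labels give RNA276 no condition and RNA275 only acclimatization, so these ratios set single RNAs side by side and describe no treatment.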

How the results depend on the processing

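The count of chemokines at least 2-fold apart was 4 and stayed between 3 and 6 under all 12 alternatives, with none lower in wildtype. The higher floor and the median over probe sets left out Cx3cl1, and so did the 3-fold threshold. The median log2 difference of the chemokines measured was 2.06; it was 1.53 over 7 genes with the lower floor, 1.59 over 4 with the higher floor, 1.37 over all 8 without a floor, 0.38 over 10 probe sets in place of genes and 1.66 over 6 genes by the brightest probe set of either type. The floors also change the folds themselves: with the higher floor Ccl2 was at 1.47 and Ccl5 at 1.70. RNA276 was highest for 4 or 5 chemokines throughout. Of 360 other values, 300 moved by less than the technical SD or 1.5 times, 60 moved by more and 0 of those at 2-fold changed sign. Of the smaller ones 6 did: Cxcl12 (-0.27 to 0.15) and Ikbkg (-0.57 to 0.32) by the brightest probe set of either type, and 4 list medians of 0.17 or less. Without a floor, 9.98% of all genes were 2-fold apart against 1.66%. No paired analysis was possible because each label has 1 RNA, and for the same reason none could be left out. The number of arrays limits the precision, and signals under the floor set no order.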

Other observations

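A few genes of the lists above that were not called 2-fold apart between wildtype and truncated Egr3 spanned at least 2-fold over the 4 RNAs. They were picked after their values were seen. Vcam1, the adhesion molecule that holds leukocytes and myoblasts, read 157 in wildtype, 146 in truncated Egr3, 155 in RNA275 and 397 in RNA276, and was the 1 of 11 NF-kB genes above the floor in any RNA to span 2-fold. Myd88, the adaptor of Toll-like and interleukin-1 receptors, read 125, 105, 105 and 344 in the same order. Tlr3, a sensor of double-stranded RNA, read 56.7, 10.1, 73.7 and 213, under the floor in both labelled RNAs, so it gives no fold between them. These 3 were highest in RNA276, as were Cxcl10, Ccl2, Ccl5 and Ccl7. Adam10, 1 of the proteases that release Cx3cl1, read 409, 339, 519 and 190, and Sdc1 read 817, 534, 1078 and 370. Both were highest in RNA275, as was Cx3cl1, and lowest in RNA276. Their list held 3 genes that spanned 2-fold. The other, Zfp36l1, read 535 in wildtype, 406 in truncated Egr3, 317 in RNA275 and 240 in RNA276, and so was highest in wildtype. Over all genes above the floor in any RNA, 14.8% spanned at least 2-fold.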
